A study of Mus musculus with 2 samples.

Results

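The 42 genes described here build, crosslink or degrade the extracellular matrix, and were read in 2 single-cell RNA-Seq libraries of mouse liver bearing CCA (cholangiocarcinoma, a cancer of the bile duct epithelium). They were taken by symbol from a fixed list, out of 32589 genes in the deposited count tables, and all 42 symbols were found. The rule used no measured value, but the list was drawn up with earlier results of these data known. By role the list holds 5 fibrillar collagens, 5 beaded or FACIT collagens, 10 basement membrane genes, 5 elastic fibre genes, 5 matrix glycoproteins, 4 proteoglycans, 3 crosslinking enzymes and 5 proteases or protease inhibitors.

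The matrix of a bile duct tumor is laid down largely by fibroblasts, a term that covers stellate cells of the sinusoids, portal fibroblasts around the bile ducts and, in the wider sense used here, smooth muscle and pericytes. Fibrillar collagens give the stroma its tensile strength, while collagen IV, laminins, nidogen and perlecan form the thin basement membrane under epithelium and endothelium. Elastic fibres consist of an elastin core on fibrillin microfibrils, lysyl oxidases crosslink collagen and elastin, and matrix metalloproteinases and their TIMP inhibitors set the rate of turnover.

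Tumors of the N-AKT model were started by hydrodynamic tail vein injection of plasmids that express active forms of Notch and AKT. Both groups were shYT animals, in which doxycycline, given from day 25, induced shRNAs that target *Yap1* and the TAZ gene *Wwtr1*, under a CAG-driven rtTA3, so in cells of every type and not in the tumor alone. One group received PBS, and the other an anti–PD-1 antibody (clone RMP1-14), which blocks a checkpoint receptor of T cells, on days 26, 29 and 32, with livers taken on day 33. The comparison asks how the matrix genes of the tumor microenvironment (TME) differed once immune checkpoint blockade (ICB) was added to YAP/TAZ depletion, and it holds no group without the depletion. The inducible shRNA alleles of both groups lie downstream of *Col1a1*, itself a matrix gene. The labels give neither the number nor the sex of the animals in a library. There was 1 library per group, so animals could not be compared with one another, no test was possible, and each value describes these libraries.

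The libraries held 19397 (PBS) and 19451 (anti–PD-1) barcodes with 121713441 and 100807037 UMIs (unique molecular identifiers, each standing for 1 captured transcript). After filtering, 15531 and 16360 cells remained, with a median of 3159 and 2990 UMIs per cell, and 219 barcodes occurred in both libraries. *Xist*, the RNA of the inactive X chromosome, had 18452 UMIs in the PBS and 11 in the anti–PD-1 library, and 4 Y-linked genes had 3113 and 15323. The PBS library thus held cells of both sexes and the anti–PD-1 library almost only Y-bearing cells, so sex and treatment cannot be told apart for most cells. Cell classes were gated with 12 markers each, none of them a matrix gene, which gave 213 and 46 fibroblasts, 530 and 101 endothelial cells, 1415 and 737 tumor cells, and 4808 and 3405 macrophages. The depletion could not be judged without control animals: *Yap1* had 9.75 and 13.1 CPM in tumor cells and *Wwtr1* 11.04 and 7.09.

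Matrix genes made up 0.426% of all UMIs in the PBS library (336539 UMIs) and 0.164% in the anti–PD-1 library (127228 UMIs). Fibroblasts held 41.9% and 26.3% of those UMIs, endothelial cells 7.91% and 2.77%, tumor cells 7.46% and 4.06%, and macrophages 18.0% and 24.4%. Cells that joined no class held 15.6% and 24.7%, and neutrophils 1.52% and 8.23%. Within fibroblasts, by contrast, the genes together stood at 83700 CPM (UMIs scaled to 1000000 in the class, 95% Poisson interval 83264 to 84138) and 74541 CPM (73744 to 75345.0). The share of matrix UMIs in the whole library therefore differed far more than the level per fibroblast transcript, and the gated fibroblasts of the anti–PD-1 library were fewer.

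Fibroblasts had the highest CPM of the 4 classes for 38 of 42 matrix genes in the PBS library and for 40 in the anti–PD-1 library. None of these genes was used to draw the gate. *Col18a1*, which encodes the precursor of endostatin, was the exception on the tumor side, with 794 and 568 CPM in tumor cells against 219 and 187 CPM in fibroblasts. *Hspg2*, which encodes perlecan, stood at 392 CPM in PBS endothelial cells and 195 in PBS fibroblasts, and at 246 and 249.9 with anti–PD-1. *Fbln2* (fibulin 2) and *Lama4* (laminin α4) were also highest in endothelial cells of the PBS library, and *Timp3* (a tissue inhibitor of metalloproteinases) in those of the anti–PD-1 library, where its 699 CPM lay within counting error of the 640.4 in fibroblasts. Macrophages, although far below fibroblasts per transcript, held most UMIs of *Fn1* (fibronectin), with 58.2% and 61.6% of its UMIs in the libraries, of *Mmp14* (a membrane-bound metalloproteinase), with 60.2% and 67.3%, and of *Timp2*, with 65.3% and 51.5%.

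**Figure D1:**
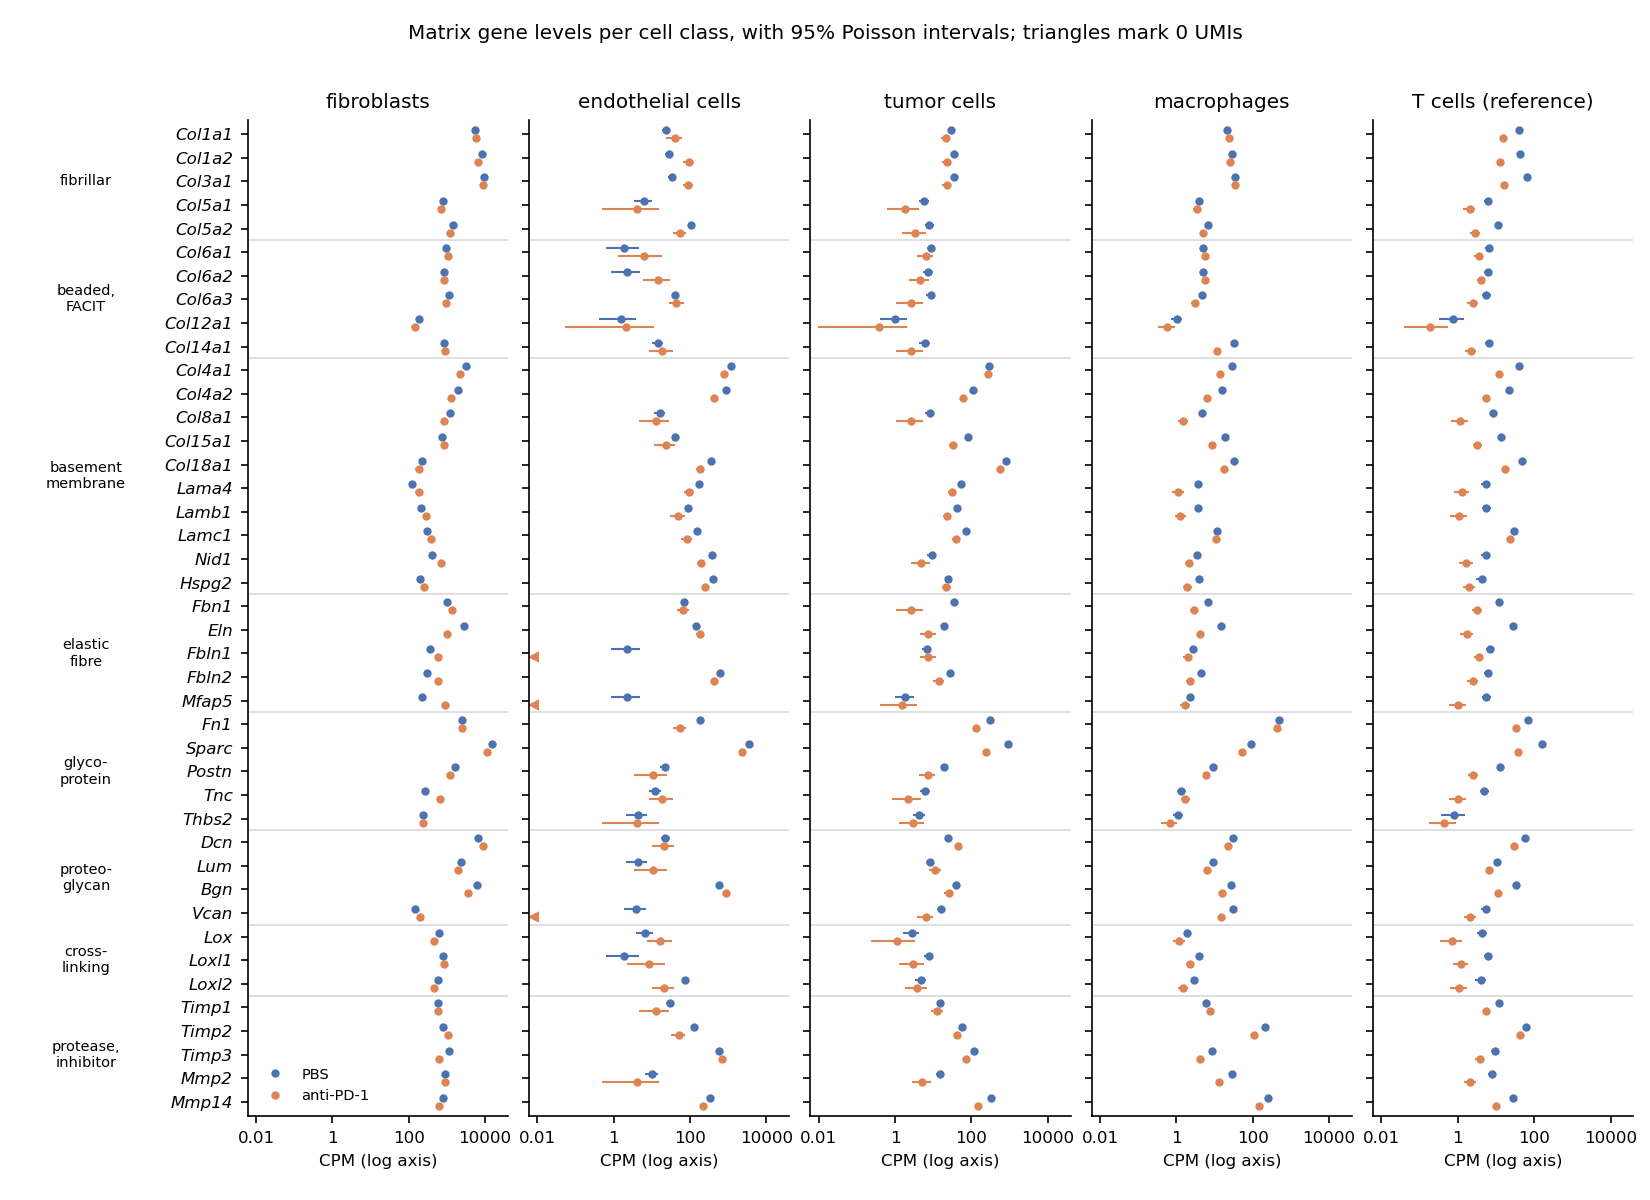
Level of each of the 42 matrix genes (rows, grouped by role) in 4 cell classes and in T cells, as CPM on a log axis, in the PBS (blue) and the anti–PD-1 (orange) library, with 95% Poisson intervals. Fibroblasts were highest for 38 and 40 genes, and in T cells 40 of 40 genes with enough UMIs lay lower in the anti–PD-1 library.

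T cells make little matrix, so their matrix UMIs were used as an estimate of the level that free RNA in the suspension gives. This level was not equal in the libraries: the genes together stood at 923 CPM (905 to 941) in PBS T cells and 333 CPM (324 to 342) in anti–PD-1 T cells. All 40 matrix genes with at least 20 UMIs in T cells had a log2 ratio below 0, with a median of −0.81. Part of this level sat in few cells, more so in the PBS library. Without the 5 T cells with most *Col1a1* and *Col1a2* UMIs, the *Col1a1* UMIs fell from 442 to 241 (PBS) and from 238 to 193 (anti–PD-1). The T cell level is thus not evenly spread free RNA alone, and multiples of it are uncertain to that extent. A gene is called above free RNA below where its UMIs per cell were at least 3 times those of T cells in the same library. All 42 genes met this in fibroblasts of both libraries. In endothelial cells 26 (PBS) and 30 (anti–PD-1) did, in tumor cells 16 and 14, and in macrophages 9 and 20.

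Ratios are anti–PD-1 over PBS on the log2 scale after adding 5 CPM to each level, which shrinks the ratios of low genes, with a 95% interval that covers counting error only. A gene counts as higher or lower where it had at least 20 UMIs over both libraries and differed at least 2-fold. In fibroblasts all 42 matrix genes had enough UMIs, 2 were higher, 1 was lower, and the median log2 ratio was −0.02, with 21 genes above and 21 below 0. Of all 9212 genes measured in fibroblasts, 4.17% were higher and 4.43% lower, with a median of −0.01, so the 2 and 1 of 42 matrix genes are shares near those of all genes. Markers of other cells were not equal in the gate: at least 2 of 12 neutrophil markers were found in 29.1% of PBS and 82.6% of anti–PD-1 fibroblasts, and at least 2 of 12 macrophage markers in 56.3% and 78.3%. Their part in the fibroblast ratios was not tested.

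The fibrillar collagens of fibroblasts differed little. *Col1a1*, which encodes the α1 chain of type I collagen, had 9470 UMIs (5618 CPM, 5505 to 5732) in the PBS library and 2605 (5812 CPM, 5591 to 6040.0) in the anti–PD-1 library, a log2 ratio of 0.05 (−0.01 to 0.11). Its partner chain *Col1a2* had 8225 and 6718 CPM and a log2 ratio of −0.29 (−0.35 to −0.23). *Col3a1*, the chain of type III collagen, had 9427 and 9110.2 CPM, and the type V chains *Col5a1* and *Col5a2*, which control fibril diameter, had log2 ratios of −0.09 and −0.25. None of the 5 fibrillar collagens differed 2-fold, and the same held for the 5 beaded and FACIT collagens, whose log2 ratios ran from −0.32 (*Col12a1*) and −0.28 (*Col6a3*, a type VI chain) to 0.14 (*Col6a1*). Of 16 genes that modify, fold and trim procollagen, such as prolyl hydroxylases, 0 were higher and 0 lower in fibroblasts, with a median log2 ratio of 0.09.

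Elastic fibre genes differed in opposite directions. *Eln*, which encodes elastin, had 4707 UMIs (2792 CPM, 2713 to 2873) in the PBS library and 465 (1038 CPM, 945 to 1136) in the anti–PD-1 library of fibroblasts, a log2 ratio of −1.42 (−1.56 to −1.29). It was the 1 lower matrix gene of fibroblasts, and it was past 2-fold lower under each of 15 alternative settings, from −2.88 to −1.09 and, where 3 anti–PD-1 cells were left, −8.52. *Mfap5*, a microfibril protein, had 383 UMIs (227 CPM, 205 to 251) in the PBS library and 398 (888 CPM, 803 to 979.7) in the anti–PD-1 library, a log2 ratio of 1.94 (1.74 to 2.15). *Fbln2* and *Fbln1*, the fibulins that link elastic fibres to basement membranes, had 303 and 596 CPM and 354 and 582 CPM, with log2 ratios of 0.97 and 0.71. *Fbn1*, which encodes fibrillin 1, had 998 and 1386 CPM and a log2 ratio of 0.47. Over the whole gate elastin alone of the 5 lay below 0, which did not hold in every fibroblast subset described below.

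*Tnc*, which encodes tenascin C, a glycoprotein of remodelling matrix, was the other higher gene, with 443 UMIs (263 CPM, 239 to 288) in the PBS library and 295 (658 CPM, 585 to 738) in the anti–PD-1 library and a log2 ratio of 1.31 (1.09 to 1.52). Few cells of the anti–PD-1 library carried *Mfap5* or *Tnc*. *Tnc* was detected in 96 of 213 PBS fibroblasts and in 15 of 46 anti–PD-1 fibroblasts, and 3 of those 15 cells held 137, 61 and 54 of its 295 UMIs. Without the 5 cells of each library with most *Tnc* UMIs the log2 ratio was −1.85, so the direction rests on few cells. However, 5 cells are a larger part of 46 than of 213, so this cut favours lower ratios. *Mfap5* was detected in 30 PBS and 17 anti–PD-1 fibroblasts, and without the 5 cells with most of its UMIs its log2 ratio was 1.82, while without cells holding 2 mural genes (39 and 22 cells left) it was 0.55.

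The 3 genes were also read in the 22 (PBS) and 35 (anti–PD-1) fibroblasts where a Y-linked gene but not *Xist* was detected. There *Eln* stood at 3744 and 1141 CPM and *Mfap5* at 254 and 824 CPM, on the same sides as in the whole gate. *Tnc* stood at 69.6 and 750.5 CPM, a log2 ratio of 3.34, with 14 UMIs in the PBS cells, and at 343 CPM in the 107 PBS fibroblasts with *Xist* and no Y-linked UMI. Of the 42 matrix genes 14 had the other sign in the Y-bearing fibroblasts, among them *Fbln1* at 507 and 488 CPM. For this and the later counts of turned signs in Y-bearing cells, the shares of all genes are not given.

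**Figure D2:**
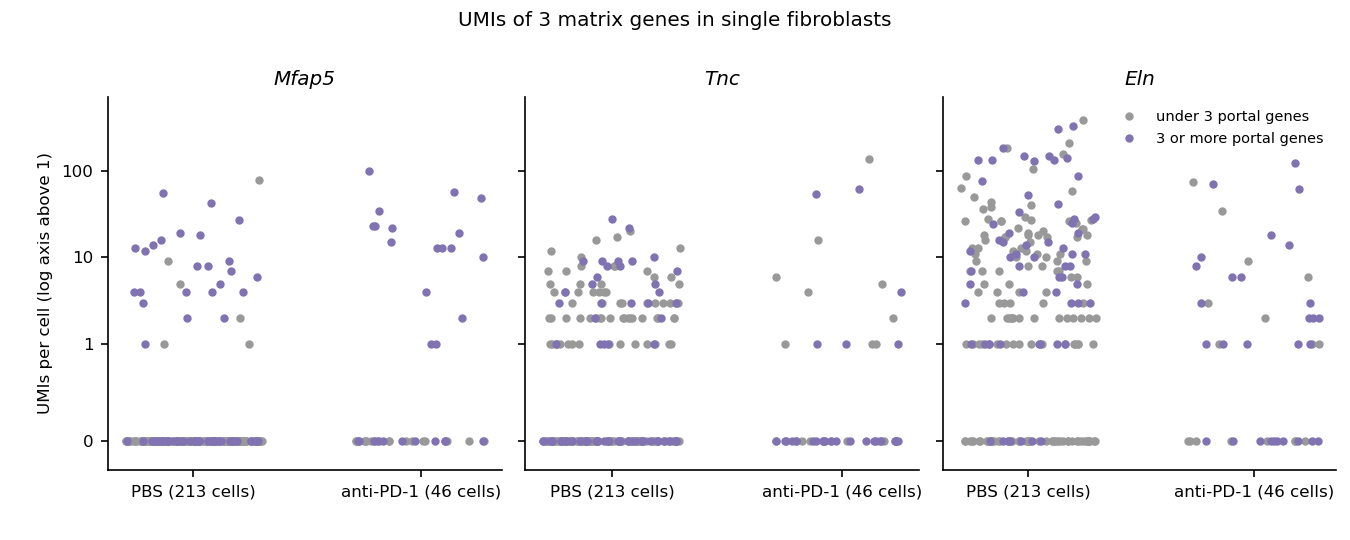
UMIs of *Mfap5*, *Tnc* and *Eln* in each of 213 PBS and 46 anti–PD-1 fibroblasts, on an axis that is logarithmic above 1, with cells holding UMIs of at least 3 of 8 portal fibroblast genes in purple and the others in grey. *Mfap5* was at 0 in the 17 anti–PD-1 fibroblasts with under 3 portal genes, and 3 anti–PD-1 cells held most *Tnc* UMIs.

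The subtype markers carried by the gated fibroblasts differed between the libraries. Cells with at least 3 of 8 portal fibroblast genes made up 63 of 213 PBS fibroblasts (29.6%, exact binomial interval 23.5 to 36.2) and 29 of 46 anti–PD-1 fibroblasts (63.0%, 47.5 to 76.8). Over the whole gate the summed portal list stood at 1331 and 4177 CPM, the mural list at 10903 and 4793 CPM and the stellate list at 2542 and 2189 CPM. Cells with at least 3 of 8 mural genes (of smooth muscle and pericytes) made up 138 (64.8%, 58.0 to 71.2) and 16 (34.8%, 21.4 to 50.2). Cells with at least 3 of 8 stellate genes made up 148 (69.5%) and 26 (56.5%). *Pi16* and *Clec3b*, of the portal list, stood at 173 and 1546 CPM and at 62.9 and 596 CPM, while *Acta2* (smooth muscle actin), of the mural list, stood at 3979.7 and 977 CPM. Not all genes of a list went one way. Of 7 measured portal genes 6 lay above and 1 below 0, and of 8 mural genes 2 above and 6 below. Of 8 stellate genes 1 lay above and 7 below, with a median log2 ratio of −0.57. Of all 9212 genes 4526 lay above and 4686 below. These lists were chosen with earlier results known, and their part in the matrix values was not tested.

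Within these subsets many matrix ratios were not those of the whole gate. Of the 42 genes 15 had opposite signs with and without 3 portal genes, and 14 with and without 3 mural genes, with both intervals off 0. The shares of all genes that did so are not given here. These intervals cover counting error only, not the spread between the few cells of a subset. In fibroblasts with at least 3 portal genes, *Mfap5* stood at 469.8 and 1388 CPM, a log2 ratio of 1.55 (1.33 to 1.77). In the others its UMIs numbered 96 (PBS) and 0 (anti–PD-1), which by the exact Poisson interval allows up to 22.8 CPM. *Fbln2* turned as well: it stood at 406 and 862 CPM in cells with 3 portal genes and at 244 and 124 CPM in the others, log2 ratios of 1.08 (0.82 to 1.33) and −0.95 (−1.65 to −0.32), while *Fbln1* had 0.28 (0.04 to 0.51) and −0.22 (−0.88 to 0.39), the latter spanning 0. *Eln* was lower in both subsets, at 4016 and 1169 CPM with and 2097 and 805 CPM without 3 portal genes, and lay below 0 with and without 3 mural genes, where its log2 ratios were −0.90 (−1.09 to −0.72) and −2.05 (−2.26 to −1.84). *Tnc* was higher in cells with 3 mural genes, at 303 and 1565 CPM, and lower in those without, at 148 and 26.5 CPM from 65 and 7 UMIs. The anti–PD-1 cells with 137, 61 and 54 *Tnc* UMIs all had at least 3 mural genes. They held most of the 288 *Tnc* UMIs of that subset, so its higher level rests on the same few cells. The collagen IV chains also split by subset. *Col4a1* stood at 3641 and 1277 CPM in cells with 3 portal genes and at 3024 and 3739 CPM in the others, log2 ratios of −1.51 (−1.67 to −1.35) and 0.31 (0.18 to 0.43). *Bgn* (biglycan) followed with log2 ratios of −1.22 (−1.32 to −1.12) and −0.37 (−0.49 to −0.25), and *Timp3* with −1.41 (−1.70 to −1.13) and −0.13 (−0.37 to 0.11). The fibril proteoglycan *Dcn* had 0.50 (0.44 to 0.56) and −0.65 (−0.77 to −0.53) with and without 3 portal genes, and the basement membrane collagens *Col8a1* and *Col15a1* had −1.70 (−1.97 to −1.44) and 0.51 (0.30 to 0.71) and, for the latter, −0.89 (−1.14 to −0.65) and 1.19 (0.95 to 1.42). For *Col4a1*, *Dcn*, *Col8a1* and *Col15a1* the ratio over the whole gate thus joins subsets that differed in opposite directions. *Bgn* and *Timp3* lay below 0 in both.

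Over the whole gate the basement membrane genes of fibroblasts leaned both ways. The collagens *Col4a1*, *Col4a2*, *Col8a1*, *Col18a1* and *Col15a1* had log2 ratios of −0.58, −0.64, −0.54, −0.22 and 0.15, with *Col4a1* at 3248 and 2164 CPM. The non-collagen members lay above 0, namely *Nid1* (nidogen 1) at 0.76, *Lama4* at 0.60, *Lamb1* at 0.40, *Hspg2* at 0.35 and *Lamc1* at 0.34. None of the 10 was 2-fold apart over the whole gate, although *Col4a1*, *Col4a2*, *Col8a1*, *Col15a1* and *Col18a1* had opposite signs with and without 3 portal genes. Among glycoproteins, *Sparc*, a collagen-binding protein secreted with new matrix, had 15054 and 11009 CPM, *Postn* (periostin) 1659 and 1174 CPM and *Fn1* 2526 and 2466 CPM, log2 ratios of −0.45, −0.50 and −0.03.

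The small proteoglycans of collagen fibrils did not move as one. *Dcn* (decorin) stood at 6618 and 8758 CPM, *Lum* (lumican) at 2345 and 1968 CPM and *Bgn* at 5988 and 3496 CPM, log2 ratios of 0.40, −0.25 and −0.78, that of *Dcn* turning with the subset as given above. The lysyl oxidases *Lox*, *Loxl1* and *Loxl2* had log2 ratios of −0.48, 0.06 and −0.30. Of the proteases and inhibitors, *Timp3* was at 1126 and 640.4 CPM (−0.81) and *Timp2* at 788 and 1053 CPM (0.42), while *Timp1*, *Mmp2* and *Mmp14* lay between −0.31 and 0.02. None of these differed 2-fold.

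Among 35 other matrix genes, 31 had enough UMIs in fibroblasts, 4 were higher and 3 lower. The higher were *Efemp1* (49.2 and 268 CPM), *Ogn* (167 and 783 CPM), *Tnxb* (77.1 and 310.1 CPM) and *Spp1* (1022 and 2586 CPM), which encode a fibulin, osteoglycin, tenascin X and osteopontin. The lower were *Fmod* (333 and 136 CPM), *Ltbp2* (459.7 and 203 CPM) and *Lama5* (35.00 and 13.4 CPM), which encode fibromodulin, a latent TGF-β binding protein and laminin α5. Of 13 proteases and inhibitors with enough UMIs, *Mmp3* and *Adamts5* were higher and *Mmp10* lower, and of 12 matrix receptors *Itgb3* was higher. *Mmp10* had 27 UMIs (PBS) and 0 (anti–PD-1).

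**Figure D3:**
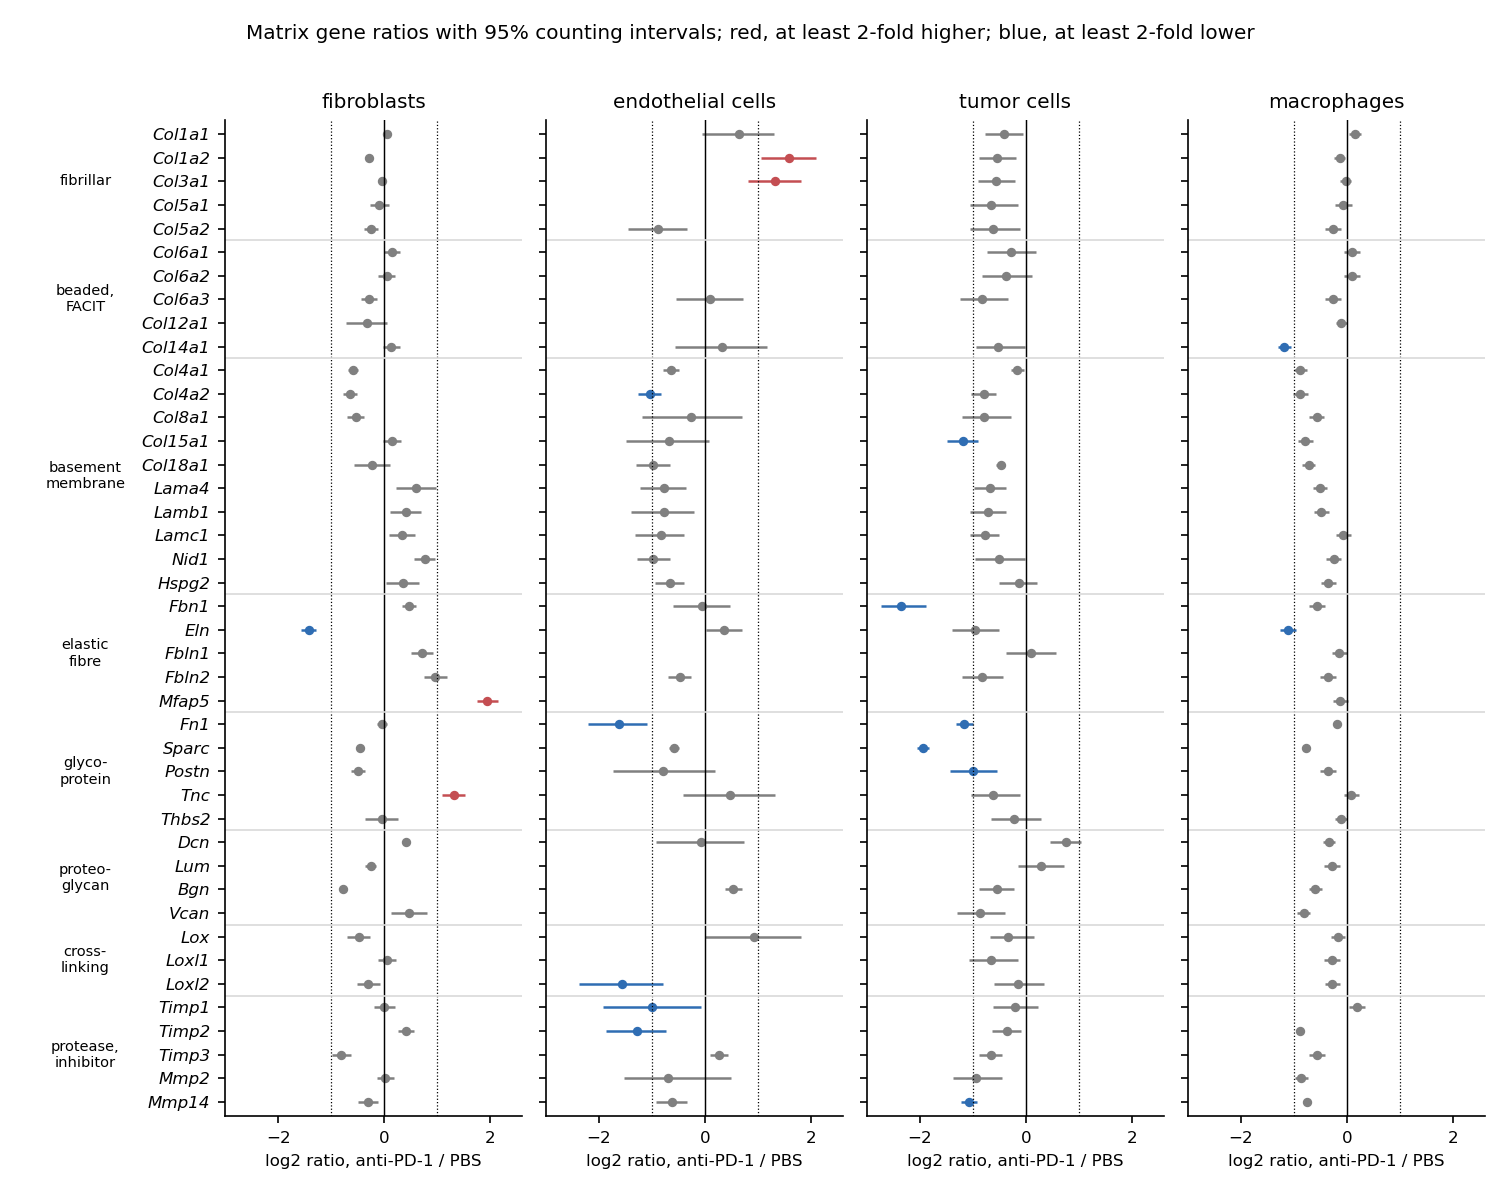
Log2 ratio of anti–PD-1 over PBS for each matrix gene with at least 20 UMIs, in 4 cell classes, with 95% counting intervals, where dotted lines mark 2-fold. In fibroblasts 21 genes lay on each side of 0, while 37 of 40 in tumor cells and 37 of 42 in macrophages lay below it. Of all genes, 7068 of 13110 in tumor cells and 10429 of 15525 in macrophages lay below 0. With T cell UMIs subtracted the macrophage median was −0.089.

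In endothelial cells the basement membrane genes lay below 0 in 10 of 10 cases, with a median log2 ratio of −0.78 beside −0.12 for all genes. Of all 10303 genes there, 6287 lay below 0. *Col4a1* and *Col4a2*, whose chains assemble with each other into the main collagen of the endothelial basement membrane, stood at 1204 and 770.4 CPM and 862 and 416 CPM, log2 ratios of −0.64 (−0.80 to −0.49) and −1.04 (−1.26 to −0.84). *Hspg2* had 392 and 246 CPM, *Nid1* 376 and 189 CPM, *Col18a1* 357 and 178 CPM and *Lama4* 169 and 96.6 CPM, each at 10.7 or more times the T cell level in both libraries. Over all classes of matrix gene 32 had enough UMIs, 2 were higher and 5 lower, with a median of −0.64, where 2.81% of 10303 genes were higher and 4.99% lower.

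The ratios of the basement membrane depended on which endothelial cells were compared. In the 34 (PBS) and 44 (anti–PD-1) endothelial cells where a Y-linked gene but not *Xist* was detected, *Col4a1* stood at 655 and 813 CPM and *Col4a2* at 406 and 408 CPM, log2 ratios of 0.31 and 0.0088, so neither chain was lower there. Within the PBS library alone, the 226 endothelial cells with *Xist* and no Y-linked UMI had 1384 CPM of *Col4a1* and 966 CPM of *Col4a2*. *Lama4*, *Lamb1* and *Col15a1* also lay above 0 in the Y-bearing cells, the latter pair on 2 PBS UMIs each, while *Nid1* (349 and 191 CPM), *Col18a1* (333 and 158 CPM) and *Hspg2* (333 and 237 CPM) lay below 0 as they did in the whole gate. In all, 11 of 32 matrix genes were 2-fold apart between the PBS endothelial cells of either sex. Some of these rest on few UMIs of the 34 Y-bearing cells, and the share of all genes is not given here. Cells of either sex also come from different animals. The part of sex in the endothelial ratios was not tested.

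*Col4a1* and *Col4a2* lie head to head on chromosome 8. In the GENCODE annotation of GRCm38 their start sites overlap by 22 bases (chr8:11312805-11312826), shown on the strand of *Col4a2* because both chains lay below 0 in the whole endothelial gate, with the 1 match to GGGCGG (the GC box that Sp1 binds) in capitals.
Col4a1/Col4a2 start sites: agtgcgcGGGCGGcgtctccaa
In the gate of fibroblasts the same pair had log2 ratios of −0.58 and −0.64, in tumor cells of −0.16 and −0.80, and in macrophages, near the T cell level, of −0.88 and −0.88.

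Besides *Col4a2*, the lower genes of endothelial cells were *Fn1* (179.7 and 54.6 CPM), *Loxl2* (72.4 and 20.99 CPM), *Timp2* (129.9 and 50.4 CPM) and *Timp1* (30.3 and 12.6 CPM). Of these *Loxl2* stood clearest of free RNA, at 26.6 and 20.3 times the T cell UMIs per cell, whereas *Fn1*, *Timp1* and *Timp2* were under 3 times in the anti–PD-1 library. *Fn1* and *Loxl2* rest on 26 and 10 anti–PD-1 UMIs, and both lay above 0 among cells with at most 1 marker of any other class (95 and 16 cells), at 0.96 and 0.95 with intervals that span 0. In the Y-bearing endothelial cells *Fn1* stood at 41.6 and 32.9 CPM (8 and 10 UMIs) and *Loxl2* at 15.6 and 16.5 CPM (3 and 5 UMIs). *Timp2* stood at 93.6 and 59.3 CPM (18 and 18 UMIs). None of the 3 values was 2-fold lower there, but these counts are too few to exclude it, and the interval of *Loxl2* ran from −1.61 to 1.73. *Timp1* was 2-fold lower in the Y-bearing cells on 7 and 4 UMIs. The PBS *Xist* cells had 189 CPM of *Fn1* and 83.3 of *Loxl2*. The higher genes, *Col1a2* (27.6 and 92.4 CPM) and *Col3a1* (33.3 and 90.3 CPM), held 90.9% and 86.05% of their anti–PD-1 UMIs in 5 cells, and stood at 0.954 and 0.773 times the T cell level in the PBS library. Without the 5 cells of each library with most of their UMIs, their log2 ratios were −0.38 and −0.59. That cut takes 5 of 530 PBS and 5 of 101 anti–PD-1 cells, which favours lower ratios.

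Some genes lay above 0 in the whole endothelial gate. *Bgn* had 586 and 850.2 CPM and a log2 ratio of 0.53 (0.37 to 0.69), *Eln* 141 and 183 CPM (0.36) and *Timp3* 583 and 699 CPM (0.26). *Sparc* stood at 3465 and 2297 CPM (−0.59) and *Fbln2* at 595 and 426 CPM (−0.48). Of these 5 genes 3 had the other sign in the Y-bearing endothelial cells, where *Eln* stood at 218 and 119 CPM, *Timp3* at 791 and 695 CPM and *Sparc* at 2029 and 2213 CPM, as did 14 of the 32 matrix genes in all. At least 2 of 12 neutrophil markers were found in 21.9% and 60.4% of the gated endothelial cells, and their part was not tested. Of 19 other matrix genes with enough UMIs, 5 were lower and 0 higher: *Col13a1* (103 and 29.4 CPM), *Efemp2* (35.2 and 10.5 CPM), *Mgp* (349 and 134 CPM), *Nid2* (47.5 and 16.8 CPM) and *Spp1* (1395 and 605 CPM). Of 8 proteases and inhibitors 1 was lower, and of 13 receptors and 13 procollagen processing genes 0. The sinusoidal endothelial list stood at 5967 and 4171 CPM and the vascular list at 3372 and 3220 CPM, and without cells holding 2 sinusoidal genes (145 and 37 cells left) the log2 ratio of *Fn1* was 0.026.

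In tumor cells 40 matrix genes had enough UMIs, 0 were higher and 6 lower, and the median log2 ratio was −0.63, with 37 of 40 below 0. Of all 13110 genes there, 2.49% were higher and 2.38% lower, with a median of −0.03, and 7068 lay below 0. Summed, the matrix genes had a log2 ratio of −0.90, from 3602 CPM (3557 to 3647) to 1929 (1877 to 1982), while their sum in T cells had −1.46. Of the 6 lower genes 5 were above free RNA in the PBS library. That cut uses the level of the library where these genes are high, so it says nothing about their direction. *Fbn1*, among the 5, was under the T cell level with anti–PD-1, as given below.

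*Sparc* had 6369 UMIs (914 CPM, 891 to 936) in the PBS library and 629 (235 CPM, 217 to 254) in the anti–PD-1 library, a log2 ratio of −1.94 (−2.06 to −1.82), and was found in 844 of 1415 and 246 of 737 tumor cells. *Fbn1* had 237 UMIs (33.99 CPM, 29.8 to 38.6) in the PBS library and 7 (2.61 CPM, 1.05 to 5.38) in the anti–PD-1 library, a log2 ratio of −2.36 (−2.73 to −1.88), while its UMIs per cell with anti–PD-1 were 0.660 times those of T cells. *Fn1* had 2143 UMIs (307 CPM, 294 to 321) in the PBS library and 361 (135 CPM, 121 to 149) in the anti–PD-1 library, a log2 ratio of −1.16 (−1.32 to −1.005). *Col15a1*, a basement membrane collagen, had 81.6 and 32.8 CPM (−1.19, −1.49 to −0.91), and *Mmp14* had 318 and 148 CPM (−1.08, −1.23 to −0.93). The remaining lower gene, *Postn*, had 19.2 and 7.09 CPM (−1.002, −1.43 to −0.55), at 2.18 and 2.24 times the T cell level. *Fbn1*, *Sparc* and *Col15a1* were past 2-fold lower in 13 of 13 alternative settings, *Fn1* and *Mmp14* in 10 and *Postn* in 7.

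Several genes of the epithelial basement membrane were detected above free RNA in tumor cells, although *Nid1* and *Col8a1* were not in the PBS library. *Col18a1* had 794 and 568 CPM (−0.48, −0.56 to −0.40), at 23.9 and 26.2 times the T cell level, but 488 and 569.7 CPM in the Y-bearing tumor cells, and *Col4a1* had 297 and 265 CPM (−0.16, −0.29 to −0.04). *Lama4*, *Lamb1* and *Lamc1* had log2 ratios of −0.68, −0.72 and −0.78, and *Timp3* had 116 and 71.6 CPM (−0.66). With T cell UMIs subtracted *Lamc1* had −1.81, and in the Y-bearing tumor cells *Lamb1* had −2.13. That *Lamb1* ratio came from 135 and 27.0 CPM (81 and 43 UMIs), while the PBS *Xist* cells had 32.4 CPM. *Col4a2*, at 111 and 61.6 CPM, had a log2 ratio of −0.80 (−1.03 to −0.57), an interval that does not overlap that of its partner *Col4a1*. The 3 genes above 0 were *Dcn*, *Lum* and *Fbln1*, with 24.7 and 44.8 CPM for *Dcn*, and all 3 were under 2 times the T cell level in both libraries.

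**Figure D4:**
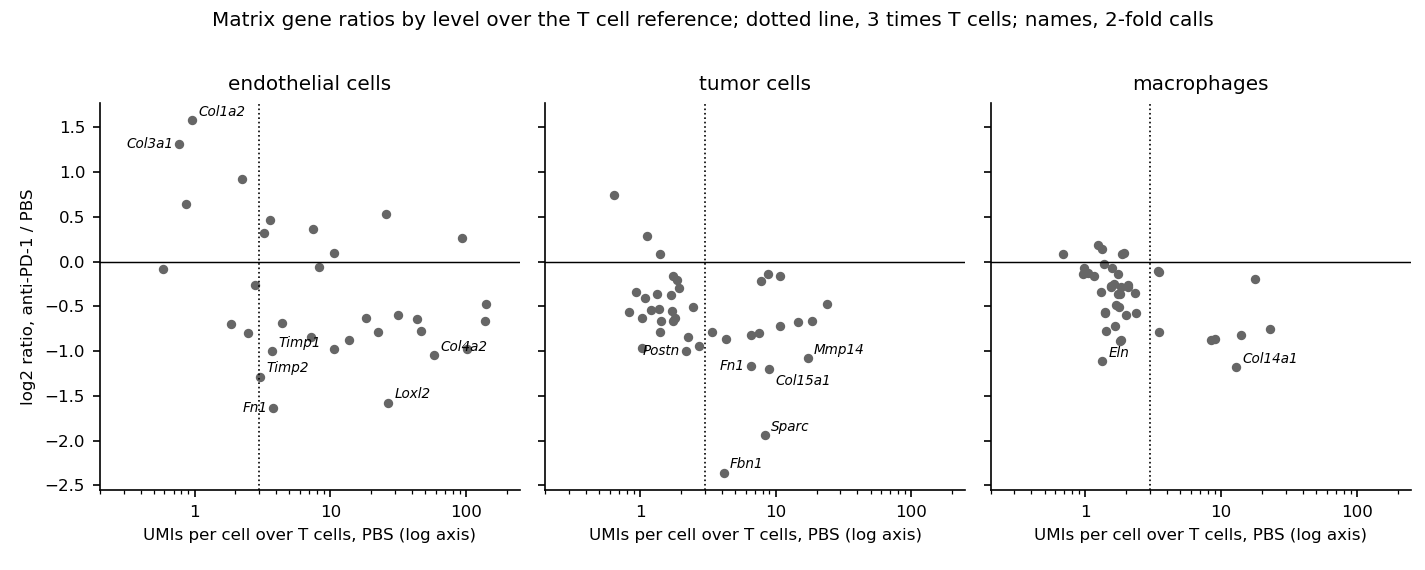
Log2 ratio of each matrix gene against its UMIs per cell in the PBS library as a multiple of T cells (log axis), for endothelial cells, tumor cells and macrophages, with genes at least 2-fold apart named. The dotted line marks 3 times the T cell level, a cut that uses the PBS level and so no test of direction, and *Col1a2* and *Col3a1* of endothelial cells lay left of it.

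The 200 bases before the RefSeq start of *Mmp14* (chr14:54431398-54431597, plus strand) and of *Col15a1* (chr4:47207812-47208011, plus strand) in GRCm38.p6 are shown as examples of promoters of genes lower in tumor cells, neither of which overlaps an annotated exon. Capitals mark CCAAT (the box that NF-Y binds) and GGGCGG on either strand, which overlap each other at the end of the *Mmp14* stretch.
Mmp14: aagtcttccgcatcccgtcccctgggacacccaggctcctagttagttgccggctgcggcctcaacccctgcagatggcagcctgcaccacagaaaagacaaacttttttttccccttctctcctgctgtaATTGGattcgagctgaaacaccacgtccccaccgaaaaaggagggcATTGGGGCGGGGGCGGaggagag
Col15a1: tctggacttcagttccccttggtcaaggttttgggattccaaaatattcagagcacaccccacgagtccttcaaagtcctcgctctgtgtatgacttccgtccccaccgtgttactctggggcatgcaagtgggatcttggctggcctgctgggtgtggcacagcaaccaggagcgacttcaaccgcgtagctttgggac
The *Mmp14* stretch holds 2 matches of CCAAT and 2 of GGGCGG, and the *Col15a1* stretch holds 0 of either. Promoters were listed for 27 of the 42 genes. CCAAT occurred in 10 of these 27 and in 30.0% of all 27025 promoters, GGGCGG in 18 and 31.3%, TATAAA in 3 and 10.6%, and CATTCC, the core bound by the TEAD partners of YAP/TAZ, in 3 (*Col3a1*, *Col6a2* and *Nid1*) and 10.1%. A match is a stretch of letters and not evidence of binding.

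Other matrix-related genes of tumor cells were mostly within 2-fold. *Mmp7*, a metalloproteinase of epithelium, had 973 UMIs (139.6 CPM, 131 to 149) in the PBS library and 70 (26.1 CPM, 20.4 to 33.00) in the anti–PD-1 library, a log2 ratio of −2.22 (−2.52 to −1.91). *Sdc1*, the cell surface proteoglycan syndecan 1, had 220.3 and 73.9 CPM, and *Plat*, the tissue plasminogen activator, 19.7 and 3.73 CPM. *Adamts5*, *Ltbp1* and *P3h1* were also lower, and *Thbs1* (thrombospondin 1) was higher, at 32.6 and 108 CPM. In all, 1 of 28 other matrix genes was higher and 1 lower, 3 of 13 proteases and inhibitors and 1 of 12 receptors were lower, and 1 of 14 procollagen processing genes was lower.

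Markers of other cells differed in the tumor gate as well. Of the mural list, *Acta2* had 74.01 and 6.34 CPM, *Myh11* 51.8 and 2.61 CPM and *Tagln* 35.1 and 7.84 CPM, while *Rgs5* had 405 and 828 CPM. The stellate list stood at 208 and 107 CPM and the 12 fibroblast markers at 34.4 and 20.1 CPM. In the other direction the 12 neutrophil markers stood at 165 and 779 CPM, the 12 macrophage markers at 401 and 765, and 4 Kupffer cell genes at 67.0 and 281. Their part in the matrix ratios was not tested. In the 71 (PBS) and 228 (anti–PD-1) tumor cells where a Y-linked gene but not *Xist* was detected, *Sparc* stood at 987 and 222 CPM, *Fn1* at 516 and 136 and *Mmp14* at 302 and 157. Within the PBS library *Sparc* was 957 CPM in the 531 *Xist* cells and 987 in the Y-bearing ones. *Col18a1* turned instead, from 488 CPM to 569.7 (292 and 908 UMIs, a log2 ratio of 0.22), against 907 CPM in the PBS *Xist* cells. Of 40 matrix genes 8 had the other sign in the Y-bearing tumor cells, and 9 were 2-fold apart between the PBS cells of either sex. The shares of all genes that did so are not given here. The part of sex in the tumor ratios was not tested.

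Macrophages had few matrix genes above free RNA, namely *Fn1*, *Mmp14*, *Timp2*, *Mmp2*, *Vcan*, *Col14a1*, *Col15a1*, *Col12a1* and *Thbs2* in the PBS library. In the anti–PD-1 library 20 genes were, and 8 in both. Over all 42 genes 0 were higher and 2 lower, with a median of −0.31 beside −0.08 for all genes, where 1.88% of 15525 genes were higher and 0.554% lower. *Mmp14*, at 23.1 and 29.3 times the T cell level, had 10084 UMIs (248 CPM, 243 to 253) in the PBS library and 4393 (146 CPM, 141 to 149.9) in the anti–PD-1 library, a log2 ratio of −0.75 (−0.80 to −0.70). *Timp2*, which also takes part in MMP-2 activation at the cell surface, had 207 and 111 CPM (−0.88, −0.93 to −0.82), and *Mmp2*, a gelatinase, 28.2 and 13.3 CPM (−0.86, −0.99 to −0.74). *Fn1* had 488 and 427 CPM (−0.19, −0.22 to −0.16) and *Vcan* (versican) 29.6 and 14.6 CPM (−0.82, −0.94 to −0.70). The proteases and *Timp2* thus lay between −0.88 and −0.75, and fibronectin nearer to 0. Without cells holding a Kupffer cell gene (2477 and 433 cells left) *Mmp14* had −0.32, *Vcan* −0.26, *Fn1* −0.50, *Mmp2* −0.78 and *Timp2* −0.95, so the order of these genes moved with those cells. In the 540 (PBS) and 2033 (anti–PD-1) Y-bearing macrophages *Mmp14* stood at 226 and 144 CPM, *Timp2* at 260.1 and 112 CPM and *Mmp2* at 21.5 and 13.1 CPM, all below 0 as before, but *Fn1* at 291 and 446 CPM, a log2 ratio of 0.61. Among macrophages with at most 1 marker of any other class (1329 and 317 cells) *Fn1* had −1.05, and it was on the same side as in the whole gate in 12 of 14 alternative settings. Of the 42 matrix genes 16 had the other sign in the Y-bearing macrophages.

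*Col14a1*, a FACIT collagen, was lower, with 1349 UMIs (33.2 CPM, 31.4 to 34.98) in the PBS library and 358 (11.9 CPM, 10.7 to 13.2) in the anti–PD-1 library of macrophages, a log2 ratio of −1.18 (−1.30 to −1.05). It was found in 846 PBS and 195 anti–PD-1 macrophages and kept its side of 2-fold in 13 of 14 alternative settings. The exception was the Y-bearing macrophages, where it stood at 22.3 and 10.5 CPM, a log2 ratio of −0.82. The other lower gene, *Eln*, at 14.6 and 4.04 CPM, was 1.33 times the T cell level in the PBS library, near the level of free RNA. Kupffer cell genes differed in the same gate: at least 2 of 4 were found in 26.2% of PBS and 67.0% of anti–PD-1 macrophages, at 3357 and 6966 CPM. At least 2 of 12 neutrophil markers were found in 41.3% and 82.8% of the gated macrophages, and the part of either list in the ratios was not tested beyond the cells left out. Outside the list, *Thbs1* (80.3 and 298 CPM) and *Mmp13* (8.97 and 25.2 CPM) were higher and *Mmp8* (22.6 and 6.86 CPM) lower.

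*Col1a1* behaved unlike *Col1a2* in neutrophils. The ratios that follow leave out the 5 cells of a class and library with most UMIs of both genes together, unless said otherwise. Fibroblasts had 0.679 (0.660 to 0.698) *Col1a1* UMIs per *Col1a2* UMI in the PBS library and 0.747 (0.696 to 0.801) in the anti–PD-1 library, and mesothelial cells 0.691 and 0.795. Macrophages had 0.766 and 1.07, and T cells 0.870 and 1.30. Neutrophils had 2.83 (2.34 to 3.45) and 10.02 (8.53 to 11.8). Over all cells, none left out, neutrophils had 1.23 (553 to 451 UMIs) and 3.43 (2070 to 603 UMIs) and T cells 0.944 and 1.18, so the ratios of both libraries depend on which cells are counted, and the anti–PD-1 ratio moved most. *Col1a1* was found in 277 of 1255 PBS neutrophils (22.1%) and in 914 of 3153 anti–PD-1 neutrophils (29.0%), and *Col1a2* in 99 and 114. The corresponding shares of T cells with a *Col1a1* UMI were 5.69% and 4.37%. What these UMIs are was not tested.

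**Figure D5:**
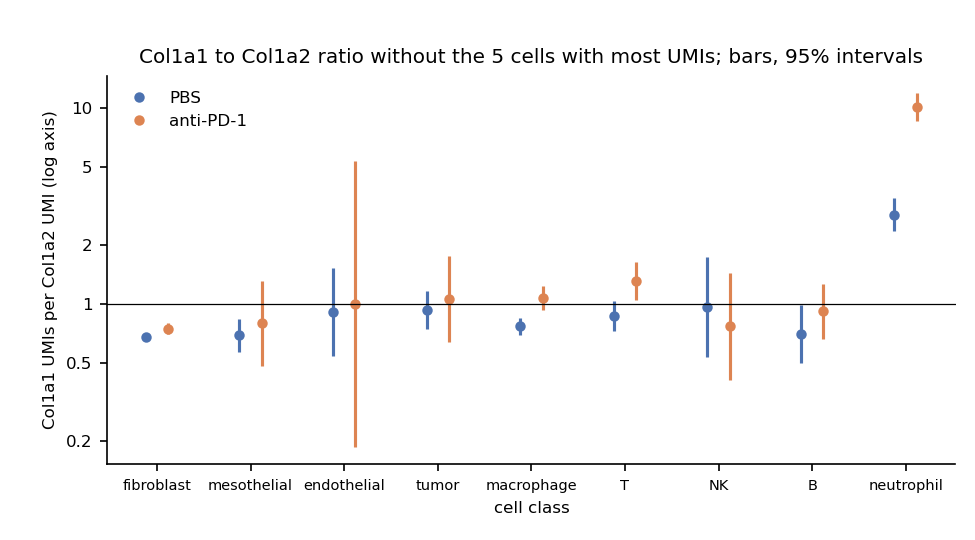
*Col1a1* UMIs per *Col1a2* UMI (log axis) in 9 cell classes of the PBS (blue) and anti–PD-1 (orange) library, without the 5 cells with most UMIs of both genes, with 95% intervals. Neutrophils stood at 2.83 and 10.02, and the other classes between 0.679 and 1.30.

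Other gene programs differed in the same classes by more than the matrix genes. Of 14 immediate early and heat shock genes, known to respond to tissue dissociation, 14 lay above 0 in each of the 4 classes, with median log2 ratios of 2.59 in fibroblasts, 1.77 in endothelial cells, 1.84 in tumor cells and 1.45 in macrophages. The medians of interferon-γ response genes, 12 measured in fibroblasts and 14 in each other class, were 1.06, 2.65, 2.72 and 1.63. Summed acinar markers of the pancreas stood at 1.78 and 58.0 CPM in fibroblasts and at 0 and 56.7 CPM in endothelial cells. The gate for pancreatic acinar cells held 0 PBS and 50 anti–PD-1 cells. Without cells holding an acinar UMI, 210 and 33 fibroblasts were left, with a median matrix log2 ratio of −0.0083. In endothelial cells 530 and 84 were left, with a median of −0.51. Whether gated fibroblasts or endothelial cells came from pancreas was not tested. Beyond that cut, the part of these differences in the matrix ratios was not tested.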

How the data were processed

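Single-cell RNA-Seq was read in 2 libraries of tumor-bearing mouse liver, grouped by the treatment in the sample labels (PBS or anti–PD-1, 1 library each). The deposited values are raw UMI counts per gene and barcode, which the authors made with the Singleron software by demultiplexing, alignment and counting. The submitters' processing notes name the build mm10 and Seurat 4.3. The software version, annotation and use of strand are not given in the sources used here, so counts of overlapping genes are uncertain. Depth was 121713441 and 100807037 UMIs. The 95% intervals reflect counting error alone, and the spread between animals could not be estimated. The study gives an n per treatment group for this experiment, but the labels do not say how many animals a library holds, and its cells carry no animal label.

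After the study's methods, barcodes with fewer than 500 or more than 5000 genes, or with over 10% of UMIs from mitochondria, were removed. Its normalization, integration and clustering were not repeated. A cell joined a class where it had UMIs of at least 3 of 12 fixed markers and of at least 2 more than for any of the other 11 classes. Doublets were not called, and an alternative kept cells with at most 1 marker of any other class. UMIs were summed per library and class, scaled to 1000000 (CPM) and given with exact Poisson intervals, and shares of cells with exact binomial (Clopper-Pearson) ones. Levels were not divided by gene length, so they are compared between libraries and classes, not between genes. Log2 ratios used a pseudocount of 5 CPM, and their intervals combine the Poisson intervals of both levels. Genes with under 20 UMIs over both libraries were left out. With 1 library a group, no p-value was computed. The steps were tested on simulated counts with known changes. Alternatives changed the gate, filter, pseudocount, minimum, scaling and weight of cells, subtracted T cell UMIs or kept Y-bearing cells.

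The matrix genes, gates and lists were chosen with earlier results of these data known. All 42 matrix genes are named. From other lists of matrix genes the rule named at most the 5 highest and 5 lowest genes a class among those 2-fold apart. *Spp1* and *Adamts5* in fibroblasts, *Ltbp1* in tumor cells and the genes of the portal, mural, Kupffer and sex lists were named after their values were seen. Coordinates came from GENCODE vM21 and promoters from RefSeq, both on GRCm38. Analyses used Python 3.11.15, numpy 2.4.6, scipy 1.17.1, pandas 2.3.3 and matplotlib 3.10.9.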

Additional observations from a re-analysis of the deposited data

Results flagged for a closer look

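*Col1a1* was detected in neutrophils, a class outside the comparisons of the 4 cell classes, above the level of T cells in the same library. Its UMIs per cell were 3.28 times those of T cells in the PBS library (553 UMIs in 1255 cells) and 9.59 times in the anti–PD-1 library (2070 UMIs in 3153 cells). *Nid1*, which encodes nidogen 1, was detected in B cells at 3.22 (59 UMIs) and 4.63 times (57 UMIs) the T cell level, with 30.5% and 42.1% of those UMIs in 5 cells. These genes were picked out as the matrix genes with at least 3 times the T cell UMIs per cell in both libraries in a class of neutrophils, NK cells, B cells or dendritic cells. What gave these UMIs was not tested.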

How the results depend on the processing

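The median log2 ratio of the matrix genes was within the counting interval of its main value under 14 of 15 alternatives in fibroblasts (−0.90 to 0.10), 14 of 14 in endothelial cells (−0.68 to −0.23) and 13 of 13 in tumor cells (−0.82 to −0.50). The intervals were −0.14 to 0.15 in fibroblasts, −0.94 to 0.0005 in endothelial cells, −0.97 to −0.21 in tumor cells and −0.44 to −0.18 in macrophages. Those of endothelial and tumor cells are wide, so only a large move would have left them. The median left the interval in fibroblasts among cells with at most 1 marker of any other class (−0.90, from 53 and 3 cells). In macrophages it did so in 6 of 14: with that stricter gate it was 0.35, with a looser cell filter −0.70, with a pseudocount of 1 CPM −0.55, with T cell UMIs subtracted −0.089, in Y-bearing cells −0.083, and over genes chosen for 3 times the T cell level in the PBS library, which favours ratios below 0, −0.79. Genes past 2-fold changed sign as follows. Under the stricter gate, *Tnc* in fibroblasts was −5.33, *Fn1* and *Loxl2* in endothelial cells 0.96 and 0.95, and *Eln* in macrophages 0.81. In Y-bearing endothelial cells (34 and 44), *Col3a1* was −1.37, *Col4a2* 0.0088 and *Loxl2* 0.059. Without cells of 2 mural genes *Tnc* was −2.48, and without cells of 3 portal genes *Mfap5* in fibroblasts was −4.24. Without sinusoidal cells (2 sinusoidal genes) *Fn1* was 0.026. Without the 5 cells with most of its UMIs, *Tnc* was −1.85, *Col1a2* in endothelial cells −0.38 and *Col3a1* −0.59. In these classes 5 cells are a larger part of the anti–PD-1 than of the PBS library, which favours lower ratios. Counting intervals span 0 for the stricter-gate values of *Tnc*, *Fn1* and *Loxl2*, for *Col4a2* and *Loxl2* in Y-bearing cells and for *Fn1* without sinusoidal cells. The causes were not tested beyond the smaller number of cells. The alternatives on portal cells, acinar UMIs, 5 cells and the T cell level were chosen after seeing the data. Over the alternatives lower genes numbered 1 to 19 in fibroblasts, 1 to 6 in endothelial cells, 5 to 15 in tumor cells and 1 to 9 in macrophages, and higher genes 1 to 6, 0 to 6, 0 to 1 and 0 to 8. No paired analysis was possible because each group has 1 library. The 46 anti–PD-1 fibroblasts and 101 endothelial cells limit what could be seen.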
